A study of Bos taurus with 90 samples.

Results

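Liver transcript levels were compared between low and high residual feed intake (RFI) Charolais (CH) steers at the end of H2, the second high-concentrate feeding phase. RFI is the difference between the feed an animal eats and the feed predicted from its weight and growth, so a low RFI steer is the efficient one. Libraries were taken as members by their labels (breed CH, diet H2), which gave 9 low RFI and 8 high RFI steers, 17 of the 90 libraries in the series. The whole study sampled CH and Holstein-Friesian (HF) steers by liver biopsy after an earlier high-concentrate phase (H1), a zero-grazed grass phase (ZG) and the finishing phase H2. All 17 CH steers here received the same ration, which held, in each kg, 860 g of rolled barley, soya bean meal and molasses at 60 g apiece, and 20 g of minerals with vitamins, and which was fed with a limited amount of grass silage. The labels give no other treatment, and the groups differed by RFI rank alone as far as the labels say. No ages are given in the labels. The RFI groups were the extremes of a ranking within breed and within phase, so a label belongs to a steer in 1 phase. Of the 17 steers, 4 also had a CH library from another phase. For steer 1100 the RFI label was low on H1 and high on H2, and for steer 307 it was high on H1 and ZG and low on H2. Steers are named here by the number in their library title.

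GIMAP genes encode GTPases of the immunity-associated protein family, which are best known from lymphocytes, where several members control cell survival. They lie side by side in 1 cluster in mammalian genomes. UDP-glucuronosyltransferases of the 2B family, such as UGT2B15, attach glucuronic acid to steroids and foreign compounds in hepatocytes. The agouti signalling protein ASIP is best known as an antagonist of the melanocortin 1 receptor in skin, and in cattle its expression has been studied in fat and other tissues as well. Haptoglobin (HP), LPS-binding protein (LBP), SERPINA3 and the fibrinogen chains are acute phase proteins that hepatocytes secrete in response to cytokines.

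The 17 libraries held 10579800 to 37835000 reads on genes, with a median of 19772600. In pairs, their Spearman correlations of log2 CPM lay between 0.782 and 0.985. The first principal component took 45.3% of the variance, and its ends were low RFI steers 454 (score 74.0) and 493 (score -79.2). The RFI groups did not separate on it (exact permutation p = 0.445). The second component took 9.95% and was led by high RFI steer 419 (score -44.2). Gene symbols were at hand for 328 gene IDs, all of which the study had listed for 1 of its own comparisons, and 305 of them were tested here. Most hepatocyte, lymphocyte, macrophage and other cell type markers were therefore not checked by name. Of 16 hepatocyte markers only APOC3 could be matched, and it ranged from 828 to 3488 CPM in low RFI and from 968 to 2059 CPM in high RFI libraries. Of 14 pancreatic acinar markers only SERPINI2 could be matched. It reached 58.4 CPM in high RFI steer 860, 51.3 in steer 364 and 14.8 in steer 419, against at most 4.55 CPM in the low RFI libraries. A single transcript does not show that pancreatic tissue was present, and whether it was, or played a part in the results below, was not tested.

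No gene passed an adjusted p of 0.1 between low and high RFI in edgeR's quasi-likelihood test, 0 of 12417 genes tested (0%), and the smallest adjusted p was 0.224. At an unadjusted p under 0.05 there were 355 genes (2.86%), of which 197 (1.59%) had higher and 158 (1.27%) lower fitted levels in low RFI steers. That is fewer than the 620.85 expected if no gene differed. No gene separated the RFI groups completely, 0 of 12417 (0%). DESeq2 called 4 genes at the same threshold, LOC768255, GIMAP4, ASIP and UGT2B15, and limma-voom with sample quality weights and the exact permutation test called 0 each. With 24310 splits the permutation test cannot bring a gene on its own under that threshold over 12417 genes. Its 0 was therefore close to fixed in advance and says little about a single gene. The permutation test had 357 genes at an unadjusted p under 0.05, DESeq2 515 and limma-voom 622. The study picked the same 4 genes on these libraries, so their rank here is not independent evidence for them. Over all genes the median log2 fold change, low over high RFI, was 0.00, and 85 genes had a fitted change beyond 1 on the log2 scale, 63 of them lower and 22 higher in low RFI steers.

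**Figure D1:**
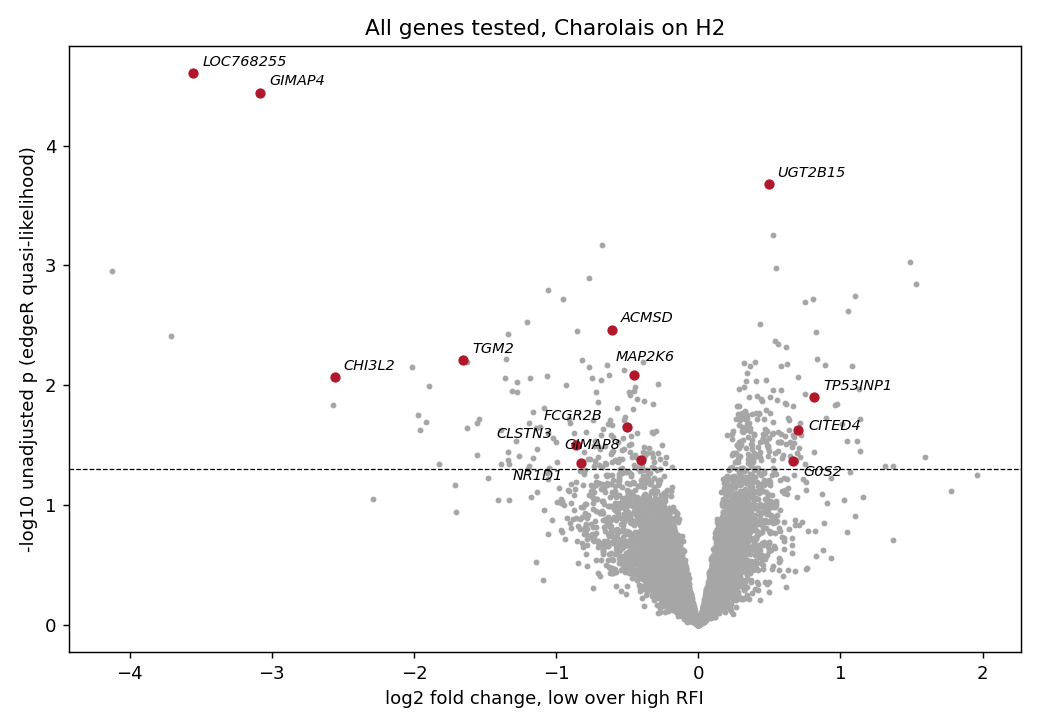
Each point is 1 of 12417 genes, with the log2 fold change of low over high RFI on the x axis and -log10 of the unadjusted edgeR p on the y axis. The dashed line marks p = 0.05. Red points are named genes past it, with LOC768255 and GIMAP4 at the upper left and UGT2B15 highest among the genes with higher levels in low RFI steers.

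LOC768255 and GIMAP4, both in the GIMAP cluster, had the smallest p of all genes, and their levels in high RFI steers lay in 2 separate ranges. LOC768255 ranged from 2.12 to 6.80 CPM in the low RFI libraries, with a median of 3.41. In high RFI libraries it was 47.5 CPM in steer 419, 50.7 in steer 860, 74.4 in steer 1840, 82.0 in steer 1100 and 106 in steer 1484. The other high RFI steers had 2.10 CPM (364), 2.95 CPM (359) and 4.18 CPM (1320), inside the low RFI range or just under it. So 5 of the 8 high RFI libraries stood above every low RFI library, and 3 did not. Low RFI steers averaged 3.97 ± 1.42 CPM (SD, n = 9), and the average over high RFI steers was 46.3 ± 40.2 CPM (SD, n = 8). The fitted level was 11.7-fold higher in high RFI steers (log2 fold change of low over high RFI -3.55, SE 0.64, edgeR adjusted p = 0.224). DESeq2 gave -3.55 with an adjusted p of 0.000242, and the exact permutation test on log2(CPM + 0.5) gave an unadjusted p of 0.0123, 0.9998 when adjusted over all genes.

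GIMAP4 had the same split in the same steers. The low RFI libraries lay between 4.95 and 12.5 CPM, with 8.59 as the median. High RFI steers 419, 860, 1840, 1100 and 1484 had 64.4, 97.3, 109, 117 and 149 CPM. Steers 364, 359 and 1320 had 4.44, 5.68 and 9.56 CPM. The GIMAP4 log2 fold change was -3.08 (SE 0.58, edgeR adjusted p = 0.224; DESeq2 adjusted p = 0.000654), an 8.45-fold higher fitted level in high RFI steers. The exact permutation p was 0.0146 before adjustment. When each of the 17 libraries was left out in turn, the edgeR adjusted p of LOC768255 and GIMAP4 ranged from 0.0205 to 0.845. It was highest without low RFI steer 493 and 0.309 without high RFI steer 419. It passed the threshold in 3 of the 17 fits, at 0.0618 without steer 1320, 0.0304 without steer 359 and 0.0205 without steer 364, and each of these fits removed a high RFI steer that lacks the high level, so a smaller p was built into them.

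The split did not extend at that size to the other cluster members with a symbol. GIMAP8 ranged from 8.84 to 19.6 CPM in low RFI libraries with a median of 12.03. In high RFI libraries it ranged from 10.8 to 23.0 CPM with a median of 20.7, and the same 5 steers (860, 1840, 1100, 1484, 419, at 20.2 to 23.0 CPM) were the ones above all low RFI libraries. The difference amounted to -0.41 on the log2 scale (SE 0.19, unadjusted edgeR p = 0.0419, adjusted p = 0.998), and to -0.35 without steer 419 (SE 0.19, unadjusted edgeR p = 0.0859). LOC511617 was scarce, at 0.488 to 1.65 CPM in low RFI and 0.418 to 3.83 CPM in high RFI libraries. Of those 5 steers, 4 (1484, 419, 1840, 1100) had its highest levels, and steer 860 was at 0.652 CPM. That made a log2 fold change of -0.76 (SE 0.39, unadjusted edgeR p = 0.0680).

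The order of these genes in the RefSeq annotation of assembly ARS-UCD2.0 is GIMAP8, LOC614871, LOC511617, LOC530031, then GIMAP4, then LOC768255 next to GIMAP6, with several pseudogenes and other protein-coding members between them. Across the 17 libraries the log2 CPM of LOC768255 followed GIMAP4 with a Pearson r of 0.988, GIMAP8 with 0.795 and LOC511617 with 0.741, and these were the 3 closest of all genes tested. For GIMAP4 the closest were LOC768255 (0.988) and GIMAP8 (0.834). The 17 points share the split of steers above, so the correlations restate it. Members of this family are similar in sequence, and reads that fit several copies may have been counted for 1 of them or dropped. A smaller number of cells that carry these transcripts and less RNA per cell cannot be told apart in a whole biopsy, and no lymphocyte marker could be matched by name.

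**Figure D2:**
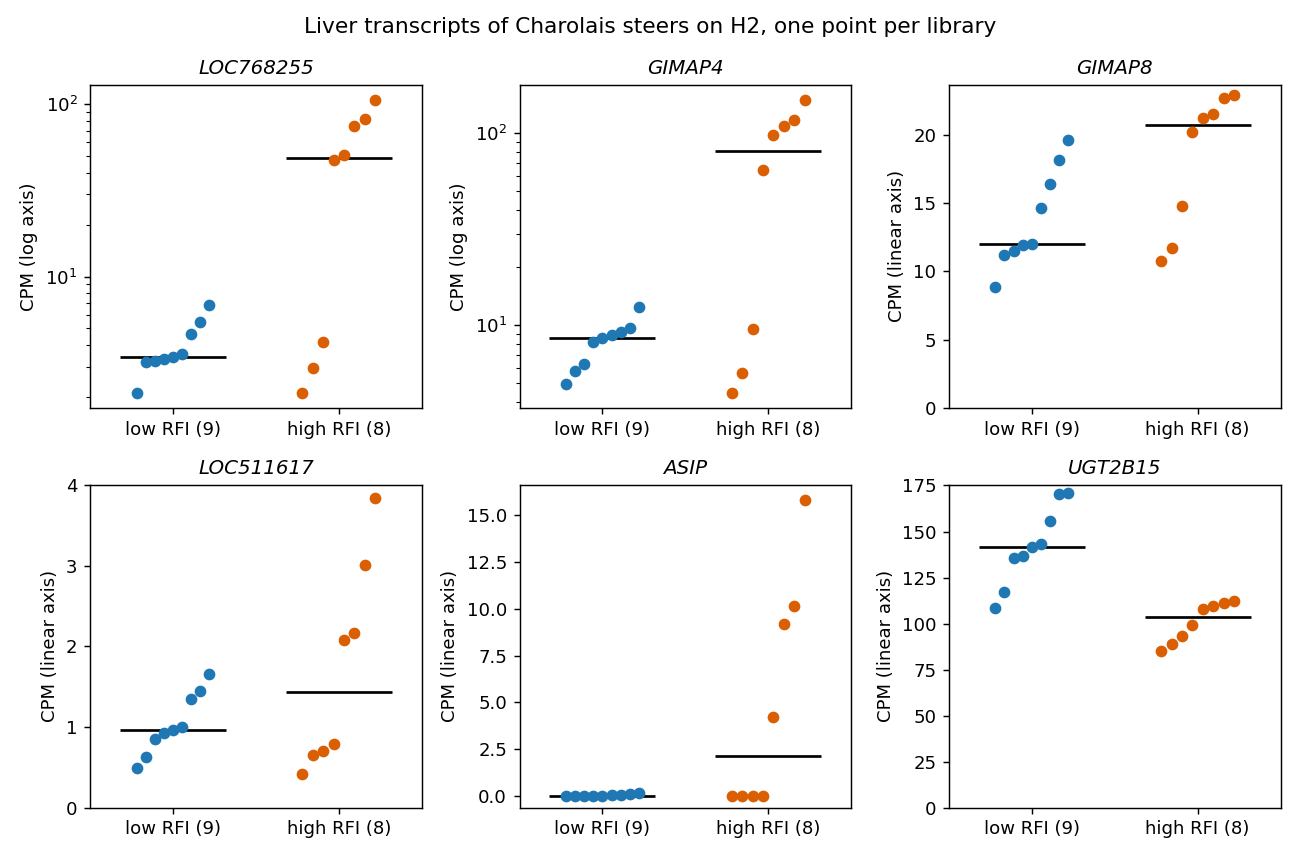
Each point is 1 library, with low RFI (9) in blue and high RFI (8) in orange, the y axis in CPM and a bar at each group's median. LOC768255 and GIMAP4 are on log axes and show 5 high RFI libraries far above the rest, the other panels are on linear axes, and UGT2B15 shows 8 of the 9 low RFI libraries above the highest high RFI library at 112 CPM.

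The split of LOC768255 was looked at in all 90 libraries, on CPM scaled over the whole series, so values differ slightly from those above. No library lay between 8.80 and 41.0 CPM, and 58 of the 90 libraries lay above 20 CPM, a level chosen after the values were seen. Low RFI CH steers on H2 were the only 1 of the 12 groups with no library above it, 0 of 9. High RFI CH steers on H2 had 5 of 8. On H1 the CH counts ran the other way, with 7 of 9 low RFI and 3 of 11 high RFI libraries above 20 CPM. On ZG they were 3 of 3 and 2 of 3. In HF steers on H2, 4 of 5 low RFI and 7 of 8 high RFI libraries were above it, and over all phases 38 of 47 HF and 20 of 43 CH libraries were.

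Steers sampled in more than 1 phase had LOC768255 on the same side of this level each time, with 1 exception. Of 14 such steers with 30 libraries, 10 were above 20 CPM in every library, 3 were below in every library and 1 was mixed. A changed RFI label did not go with a changed side, since 5 of the 10 steers above and 1 of the 3 below had libraries with both labels. Among the CH steers on H2, steer 1100 had 45.7 CPM on H1, where it was low RFI, and 88.3 CPM on H2, where it was high RFI. Steer 307 had 2.11 CPM on H1 and 1.97 CPM on ZG as a high RFI steer and 3.60 CPM on H2 as a low RFI steer. Steers 364 (2.46 and 2.36 CPM) and 1320 (1.46 and 4.64 CPM) were high RFI and low in this transcript in both concentrate phases. GIMAP4 gave the same counts of steers, and in steer 1100 it was 60.3 CPM on H1 and 126 CPM on H2. What sets the side on which a steer lies was not tested.

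**Figure D3:**
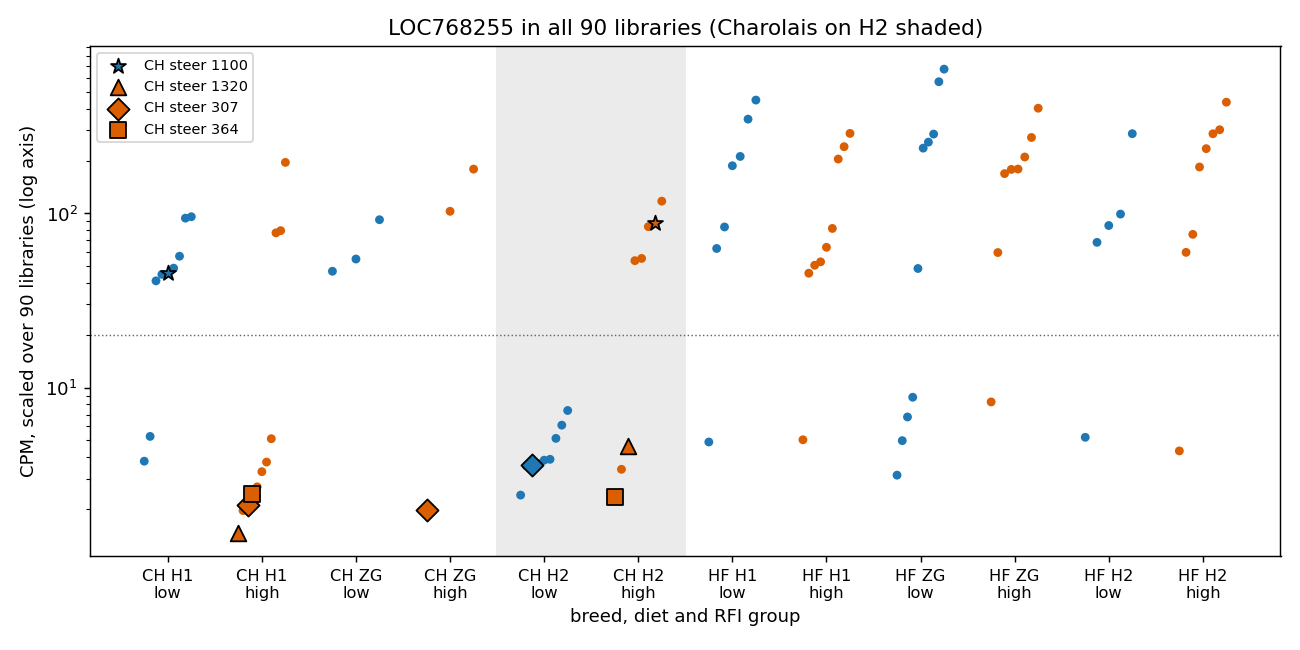
LOC768255 in CPM scaled over 90 libraries (log axis) by breed, diet and RFI group, low RFI in blue and high RFI in orange. Charolais on H2 is shaded, large symbols are the 4 CH steers with a library in another phase, and the dotted line at 20 CPM runs through the gap between 8.80 and 41.0 CPM.

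The difference of the RFI effects between diets or breeds was tested directly. The fit of H2 against H1 took libraries as independent, although 4 steers had a library in both phases, 2 of them with changed RFI labels. Its SE and p values do not allow for these shared steers. For LOC768255 the log2 fold change in CH was 0.52 (SE 0.94) on H1 and -3.55 on H2, a difference of -4.06 (SE 1.23, unadjusted edgeR p = 0.00217, adjusted p = 0.619). GIMAP4 gave a difference of -3.70 (SE 1.04, adjusted p = 0.619). GIMAP8 was 0.60 (SE 0.13) on H1 and -0.41 on H2, a difference of -1.01 (SE 0.22) with an unadjusted p of 6.54e-05 and an adjusted p of 0.459. The study listed GIMAP8 for CH on H1, so its H1 value was chosen on those libraries. Against HF steers on H2, where LOC768255 was -0.86 (SE 0.90), the difference was -2.70 (SE 1.06, adjusted p = 0.9999). Neither test called a gene in edgeR, 0 of 13228 (0%) between H2 and H1 and 0 of 12959 (0%) between CH and HF, with 996 and 287 genes at an unadjusted p under 0.05. If no gene differed, 661.4 and 647.95 genes would be expected at that p. DESeq2 called ASIP for the first difference, and C1R and FBP2 for the second. The study had listed ASIP for CH on H2, and C1R and FBP2 for HF on H2, so these calls are not independent of its picks. C1R, a complement protease, had 1996 reads in high RFI CH steer 1320 and 14 or fewer in each of the other CH libraries on H2. In HF low RFI libraries its highest count was 597 against a median of 4, and in HF high RFI libraries it had at most 3 reads. FBP2, a fructose-bisphosphatase, ranged from 0.938 to 7.77 CPM in low RFI and from 2.57 to 7.02 CPM in high RFI CH libraries on H2, with a log2 fold change of 0.02 (SE 0.34). In HF steers on H2 it had 3 to 28 reads in low RFI libraries (0.131 to 1.72 CPM, here without TMM scaling) and 20 to 282 reads in high RFI libraries (1.73 to 17.0 CPM), so the HF groups met without overlapping on this scale and the CH groups overlapped.

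ASIP was detected above 1 CPM in 4 high RFI libraries and in no low RFI library. It had 74 reads in steer 359 (4.20 CPM), 205 in steer 419 (9.20 CPM), 244 in steer 1840 (10.1 CPM) and 194 in steer 860 (15.8 CPM). The other 4 high RFI steers had at most 1 read. The low RFI steers had 0 to 3 reads each, at most 0.198 CPM. The gene was therefore too scarce for the filter of the edgeR test. Without that filter the log2 fold change was -6.35 with an adjusted p of 0.946, DESeq2 gave -6.43 (SE 1.43) with an adjusted p of 0.0302, and the exact permutation test gave an unadjusted p of 0.0252. With so few reads in the low RFI group the size of the fold change rests on very low counts. Steers 419, 1840 and 860 were among those with high LOC768255, but steer 359 was not, and steers 1100 and 1484 had high LOC768255 without ASIP. The 5 genes closest to ASIP over the 17 libraries (Pearson r 0.692 to 0.800) and to UGT2B15 (0.803 to 0.831) had no symbol. In the rest of the series ASIP was above 1 CPM in 2 of 9 low RFI and 0 of 11 high RFI CH libraries on H1, in 1 of 3 low RFI CH libraries on ZG and in 1 of 47 HF libraries. On the RefSeq annotation of ARS-UCD2.0 ASIP is followed by a small nucleolar RNA gene and AHCY, the S-adenosylhomocysteine hydrolase gene. AHCY lay between 1436 and 4337 CPM in low RFI and between 1704 and 2246 CPM in high RFI libraries, with a log2 fold change of 0.10 (SE 0.18).

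UGT2B15 had the smallest p among named genes with higher levels in low RFI steers, and its difference was small but even across steers. The low RFI libraries ranged from 109 to 171 CPM with a median of 142. The high RFI libraries ranged from 85.2 to 112 CPM with a median of 104. Low RFI steer 454, at 109 CPM, was the only 1 inside the high RFI range, and the other 8 were above all high RFI libraries. Averages were 142 ± 21.4 CPM (SD, n = 9) for low RFI and 101 ± 10.8 CPM (SD, n = 8) for high RFI, a 1.41-fold higher fitted level in low RFI steers (log2 fold change 0.49, SE 0.11, edgeR adjusted p = 0.871). Its exact permutation p was 0.000411 before adjustment and 0.9998 after it, and DESeq2 gave an adjusted p of 0.0226. The log2 fold change was 0.13 (SE 0.10) in CH on H1, 0.04 (SE 0.25) in CH on ZG and 0.35 (SE 0.24) in HF on H2. Steer 307 had 104 CPM on H1 and 155 on ZG as a high RFI steer and 161 on H2 as a low RFI steer, and steer 1100 had 120 CPM on H1 as a low RFI steer and 100.2 on H2 as a high RFI steer. Of 4 matched detoxification genes, all had higher fitted levels in low RFI steers, against 50.6% of all genes. Only UGT2B15, which the study had picked on these libraries, had an unadjusted p under 0.05, against 1.59% of all genes in that direction, and the median log2 fold change of the list was 0.10. CYP3A5, a cytochrome P450, was at 0.06 (SE 0.16), EPHX1, an epoxide hydrolase, at 0.08 (SE 0.21) and MAOB, a monoamine oxidase, at 0.12 (SE 0.11). UGT2B copies are similar to each other, and their shared reads may have been dropped in counting.

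Further genes with lower fitted levels in low RFI steers and an unadjusted p under 0.05 had edgeR adjusted p values of 0.998. ACMSD, the enzyme that steers tryptophan breakdown away from NAD synthesis, ranged from 36.8 to 95.8 CPM with a median of 66.7 in low RFI and from 71.7 to 129 CPM with a median of 96.5 in high RFI libraries. Low RFI libraries were below all high RFI libraries in 6 of 9 steers. Its log2 fold change was -0.61 (SE 0.18, unadjusted edgeR p = 0.00344). ACMSD was at -0.11 (SE 0.23) in CH on H1, 0.70 (SE 0.32) in CH on ZG and 0.17 (SE 0.29) in HF on H2. MAP2K6, a kinase upstream of p38, ranged from 13.3 to 22.1 CPM in low RFI and from 14.9 to 38.4 CPM in high RFI libraries, with 6 of 8 high RFI steers above all low RFI steers. The log2 fold change of MAP2K6 was -0.45 (SE 0.15). In CH on H1 the same gene was at -0.44 (SE 0.13), and the difference of the effects was 0.00 (SE 0.23). MAP2K6 was at -0.07 (SE 0.28) in CH on ZG and -0.24 (SE 0.23) in HF on H2.

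TGM2, transglutaminase 2, a protein crosslinking enzyme, ranged from 12.2 to 70.6 CPM with a median of 21.6 in low RFI and from 14.4 to 264 CPM with a median of 60.2 in high RFI libraries. In 3 high RFI steers TGM2 stood above the low RFI range. The log2 fold change was -1.66 (SE 0.54) on H2, -1.54 (SE 0.39) in CH on H1 and 0.39 (SE 0.75) in CH on ZG. NR1D1, a repressor in the circadian clock, was at 1.25 to 14.5 CPM in low RFI and 5.34 to 23.1 CPM in high RFI libraries, with 4 high RFI steers above the range of the low RFI group and a log2 fold change of -0.82 (SE 0.38). It was at -0.75 (SE 0.23) in CH on H1 and -0.22 (SE 0.44) in CH on ZG. The study listed MAP2K6, TGM2 and NR1D1 for CH on H1, so their H1 values were chosen on the H1 libraries. Shares for the whole H1 lists are given below. The H1 and H2 values of these genes share 4 steers, and none of the genes passed the adjusted edgeR threshold in either phase here.

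CLSTN3, a calsyntenin, ranged from 0.313 to 3.61 CPM in low RFI and from 1.59 to 5.08 CPM in high RFI libraries, with 5 high RFI steers above the low RFI range (log2 fold change -0.86, SE 0.37). CLSTN3 was at 0.30 (SE 0.28) in CH on H1 and -1.77 (SE 0.44) in CH on ZG, for which the study listed it. FCGR2B, an inhibitory receptor for immunoglobulin G, ranged from 21.5 to 35.1 CPM in low RFI and from 22.7 to 76.3 CPM in high RFI libraries (log2 fold change -0.50, SE 0.20). Its highest levels were in steers 860 and 419. Without steer 860 the FCGR2B log2 fold change was -0.31, and without steer 419 it was -0.42 (SE 0.21, unadjusted edgeR p = 0.0552). In CH on H1 it was at 0.45 (SE 0.20), a difference of -0.94 (SE 0.29, edgeR adjusted p = 0.619). In CH on ZG, for which the study listed it, FCGR2B was at 1.01 (SE 0.22).

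Among named genes with higher fitted levels in low RFI steers, 4 had an unadjusted p under 0.05. Besides UGT2B15 they were TP53INP1, a p53-induced stress protein, CITED4, a transcriptional coactivator, and G0S2, an inhibitor of fat cell lipase. TP53INP1 ranged from 11.9 to 68.7 CPM in low RFI and from 10.6 to 27.2 CPM in high RFI libraries, with 4 low RFI steers above the high RFI range. TP53INP1 had a log2 fold change of 0.81 (SE 0.30), and 0.60 (SE 0.18) in CH on H1, for which the study listed it. CITED4 ranged from 1.39 to 7.03 CPM in low RFI and from 1.21 to 4.43 CPM in high RFI libraries (0.70, SE 0.28). G0S2 ranged from 4.48 to 15.8 CPM in low RFI and from 3.099 to 9.97 CPM in high RFI libraries (0.67, SE 0.31). In CH on ZG, for which the study listed them, these last genes were at -1.56 (SE 0.38, CITED4) and -0.97 (SE 0.21, G0S2). The remaining genes among the 8 with the smallest p in this direction, counted only over genes with a symbol, did not reach an unadjusted p of 0.05. Their log2 fold changes were 0.44 (SE 0.24) for MYCL, a Myc family factor, 0.34 (SE 0.18) for coagulation factor F5 (0.47 without steer 419, SE 0.17, unadjusted edgeR p = 0.0121), 0.87 (SE 0.47) for FCRL1, an Fc receptor-like protein of B cells, and 0.24 (SE 0.14) for INPP1, an inositol phosphatase.

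Among gene IDs without a symbol, ENSBTAG00000015541 was at 22.3 to 35.1 CPM in low RFI and 13.8 to 27.8 CPM in high RFI libraries, a log2 fold change of 0.53 (SE 0.13, unadjusted edgeR p = 0.000557). ENSBTAG00000008127 was at 50.5 to 102 CPM in low RFI and 81.7 to 162 CPM in high RFI libraries (-0.68, SE 0.17, unadjusted edgeR p = 0.000678). Both groups overlapped for each.

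Acute phase transcripts did not pass the test, and their values turned on high RFI steer 419. HP was 23075 CPM in steer 419, 1214 CPM in steer 860 and 172 CPM or less in the other high RFI libraries, with a median of 77.9. The low RFI libraries ranged from 44.6 to 1823 CPM with a median of 436. The fitted log2 fold change of HP was -2.29 (SE 1.28, unadjusted edgeR p = 0.0891) with all libraries and 1.44 (SE 0.92, unadjusted edgeR p = 0.135) without steer 419, so its direction rested on that library. SERPINA3 was 1770 CPM in steer 419 and 197 to 595 CPM in the other high RFI libraries, against 220 to 713 CPM in low RFI libraries. LBP was 1140 CPM in steer 419 and 101 to 376 CPM in the other high RFI libraries, against 68.2 to 498 CPM. Without steer 419 the log2 fold change of SERPINA3 moved from -0.43 (SE 0.39) to 0.22 (SE 0.25) and that of LBP from -0.72 (SE 0.51) to 0.08 (SE 0.38).

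Of the 8 acute phase genes with a symbol, 6 (HP, LBP, SERPINA3, FGG, FGA and C5) had their highest level in steer 419. M-SAA3.2, a serum amyloid A gene, was at 0.807 CPM in that steer and highest at 9.20 CPM in high RFI steer 1320, and IL1A, an interleukin 1 gene, was at 1.21 CPM against 1.31 CPM in steer 1320. The fibrinogen gamma chain FGG reached 28177 CPM in steer 419 and 27879 CPM in low RFI steer 1316. The FGG log2 fold change was 0.23 (SE 0.27) with all libraries and 0.46 (SE 0.24, unadjusted edgeR p = 0.0786) without steer 419.

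Genes outside that list are given here because steer 419 had their highest level. CHI3L2, a chitinase-like protein, was 36.7 CPM in steer 419, 3.91 CPM in steer 860 and at most 1.08 CPM in the other high RFI libraries, while the low RFI libraries lay between 0.554 and 1.70 CPM. The log2 fold change of CHI3L2 was -2.56 (SE 0.87, unadjusted edgeR p = 0.00852) and -0.10 (SE 0.46) without steer 419. Its place among the genes with a symbol and the smallest p therefore rested on that steer. TNC, the matrix protein tenascin C, was 86.2 CPM in steer 419, and its log2 fold change went from -0.60 (SE 0.55) to 0.44 (SE 0.37). IFI44, an interferon-stimulated gene, was 87.8 CPM in steer 419 and 4.48 to 14.3 CPM in the other high RFI libraries, against 3.73 to 19.3 CPM in low RFI libraries. TGM2 was also highest in steer 419, and at -1.14 (SE 0.48) without it. So were MAP2K6 (38.4 CPM), DGAT2 (69.3 CPM) and ABCA6 (277 CPM). Without steer 419 MAP2K6 went from -0.45 (SE 0.15) to -0.33 (SE 0.14). DGAT2 went from -0.03 (SE 0.17) to 0.17 (SE 0.12), and ABCA6 from -0.004 (SE 0.26) to 0.28 (SE 0.21). LOC768255, GIMAP4 and UGT2B15 stayed at -3.55, -3.10 and 0.52 without steer 419.

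**Figure D4:**
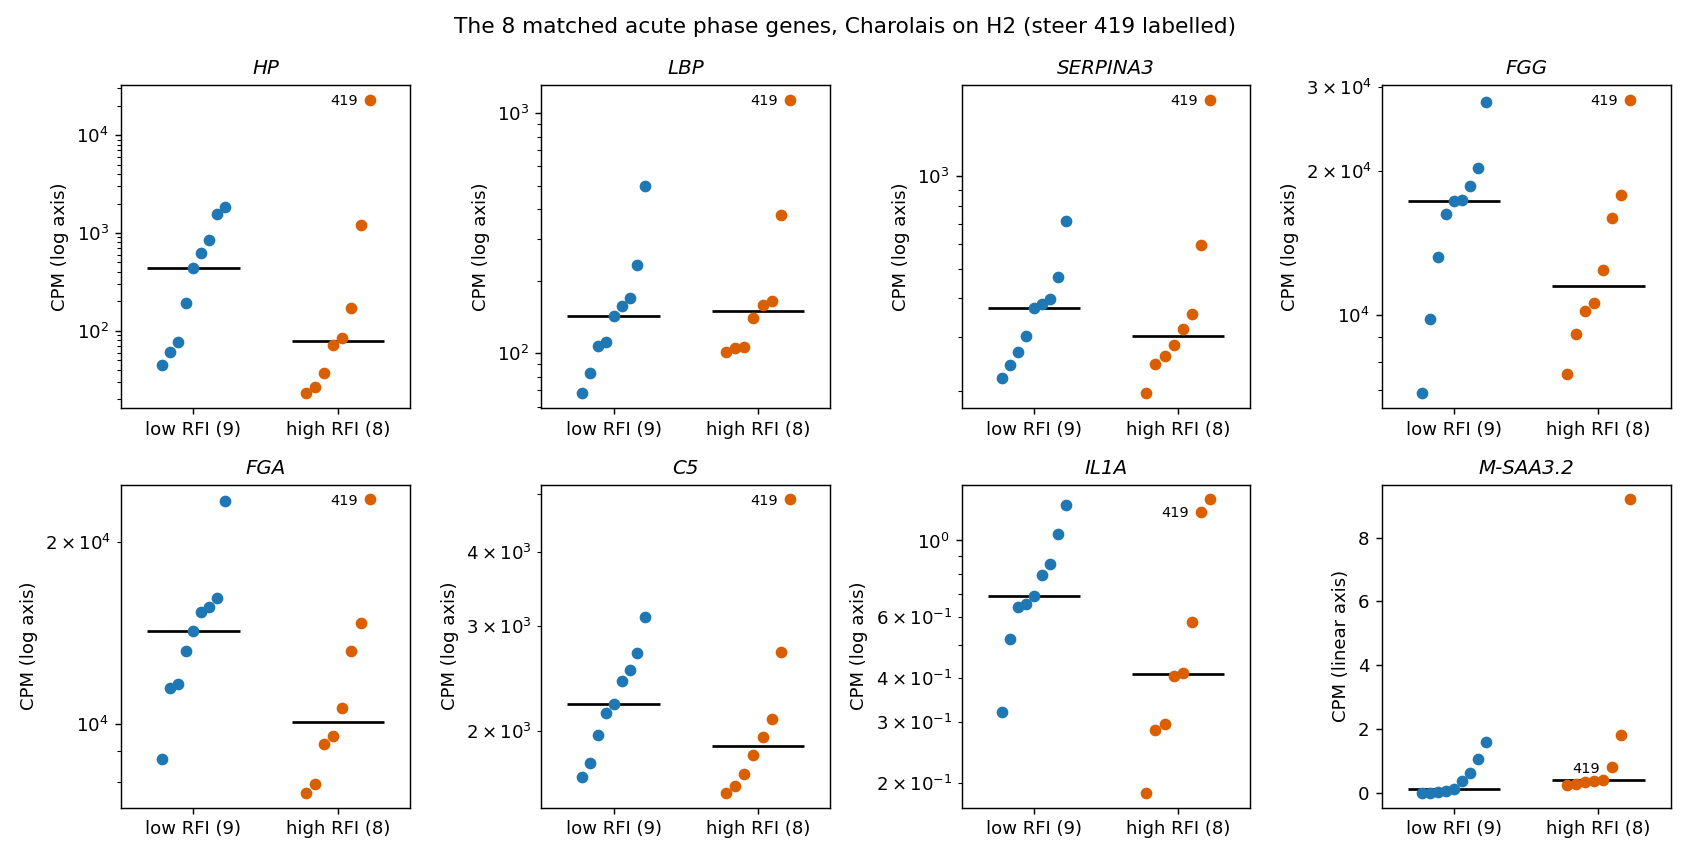
Each point is 1 library, low RFI (9) in blue and high RFI (8) in orange, in CPM with a bar at the median, on log axes except for M-SAA3.2, which is on a linear axis. The panels are the 8 acute phase genes with a symbol, and steer 419, which is labelled, is the highest library in 6 of them.

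Repeat samples of the same steers gave different HP levels in different phases, on CPM scaled over the series. Steer 364, high RFI each time, had 2809 CPM on H1 and 94.0 CPM on H2. Steer 1100 had 1119 CPM on H1 and 28.99 on H2, and steer 307 had 137 CPM on H1, 84.0 on ZG and 958 on H2. Steer 1320, high RFI each time, had 104.5 CPM on H1 and 41.0 on H2, the smallest change of the 4. In all 4 steers LOC768255 kept its side of 20 CPM.

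Genes that the study listed for CH on the other diets were described on H2 as well, since those lists were not chosen on these libraries. Of the genes listed as higher in low RFI steers on H1, 26 of 74 tested (35.1%) had higher fitted levels in low RFI steers on H2, against 50.6% of all genes. Of those listed as lower on H1, 30 of 73 (41.1%) were lower on H2, against 49.4% of all genes. Without steers 454 and 493, the ends of the first component, these were 39.2% and 57.5%, against 48.5% and 51.5% of all genes. Leaving out 2 libraries thus moved the second share from below to above that of all genes. Of the genes listed as lower in low RFI steers on ZG, 92 of 111 (82.9%) were lower on H2, with a median log2 fold change of -0.20. That count was 100 of 111 (90.1%) without steers 454 and 493, where 51.5% of all genes were lower. It was 97 of 112 without the 4 steers with a library in another phase, where 6043 of 12562 genes were lower. Of those listed as higher on ZG, 18 of 38 (47.4%) were higher, and 28 of 38 without steer 419, a fit in which 6408 of 12446 genes were higher. Genes of a list may move together within a library, so its members are not independent, and none of them passed the adjusted threshold here.

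Among single genes named for the other diets, HP, CHI3L2, TGM2, NR1D1, TP53INP1, MAP2K6 and FCGR2B had the H2 values given above. TNFAIP3, an inhibitor of NF-kappa B signalling, passed the threshold in CH on H1 at 0.67 (SE 0.11, edgeR adjusted p = 0.0258), and on H2 it was 0.19 (SE 0.21), a difference of -0.48 (SE 0.23, adjusted p = 0.643). KRBA1 was at 1.39 (SE 0.23) on H1, and on H2 it was at most 0.442 CPM in any library and was not tested. SIK1, a salt-inducible kinase, was at 1.34 (SE 0.30) on H1 and 0.14 (SE 0.35) on H2. IRS2, an insulin receptor adaptor, was at 1.23 (SE 0.26) on H1 and 0.25 (SE 0.50) on H2. The lipid synthesis regulator MID1IP1 was at -0.67 (SE 0.18) and 0.08 (SE 0.28), and DGAT2, which makes triglyceride, at -0.52 (SE 0.14) and -0.03 (SE 0.17). The study listed these genes, from TNFAIP3 to DGAT2, for CH on H1, so their H1 values were chosen on those libraries. None of these differences between H2 and H1 passed the adjusted threshold, so they were not shown to differ.

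GADD45G, a growth arrest protein, was at 1.23 (SE 0.38) on H1 and -1.27 (SE 0.37) on ZG, the diets for which the study listed it. On H2 it was at 0.29 (SE 0.33). The immediate early and NF-kappa B genes JUN (-0.03, SE 0.16), NFKBIA (0.19, SE 0.18) and IL1A (0.34, SE 0.36) had H2 values within about their standard errors of 0. The study chose its ZG genes on the 3 low and 3 high RFI libraries of ZG, so larger values there were built in. The difference between ZG and H2 was not tested. Of these genes, SLC39A4, a zinc importer, was at -2.65 (SE 0.34) on ZG and -0.19 (SE 0.58) on H2. BHMT2, a methyltransferase that uses methylated donors, was at 1.29 (SE 0.16) and 0.26 (SE 0.27), ABCA6, a lipid transporter, at 1.18 (SE 0.19) and 0.00 (SE 0.26), and the alpha tubulin TUBA4A at -1.12 (SE 0.19) and 0.10 (SE 0.25). None of SLC39A4, BHMT2, ABCA6 and TUBA4A passed the adjusted threshold on ZG here (edgeR adjusted p of 0.282 to 0.365).

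**Figure D5:**
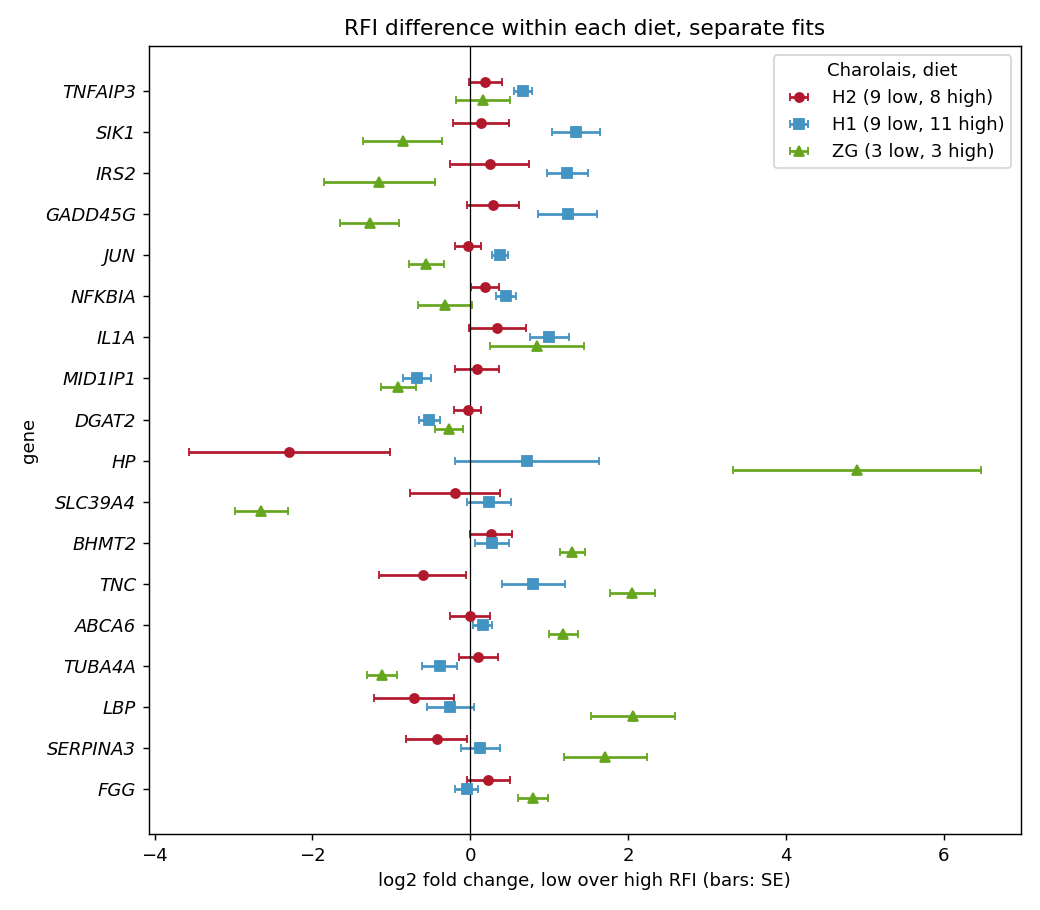
The log2 fold change of low over high RFI with its SE in CH on H2 (red circles), H1 (blue squares) and ZG (green triangles), each from its own fit, for 18 genes named for the other diets. The study chose these genes on the H1 or ZG libraries. The H2 values of 17 genes lie between -0.72 and 0.34, and HP at -2.29 has the widest bar among the H2 values.

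The gene lists drawn up for liver were described by their matched members only, since symbols covered few of them. Of the 23 pathway and 14 marker lists, 22 had a matched gene. Over all genes 50.6% had higher and 49.4% lower fitted levels in low RFI steers, and 2.86% had an unadjusted p under 0.05, which are the shares to set beside each count. Of 7 matched and tested acute phase genes, 3 had higher and 4 lower fitted levels in low RFI steers, 0 with an unadjusted p under 0.05, and the median was -0.01 against 0.00 over all genes. Of 9 cell cycle genes, 2 were higher and 7 lower with a median of -0.14 and 0 past that p, among them TROAP (-0.45, SE 0.28), a spindle-associated protein, and MCM2 (-0.38, SE 0.33), a replication helicase subunit. Of 7 genes of amino acid and one-carbon use, 4 were higher and 3 lower with a median of 0.05, and ACMSD was the 1 past it. Of 5 immediate early genes, 4 were higher with a median of 0.19 and 0 past it. Of 3 clock genes, NR1D1 was the 1 past it, with NFIL3 at 0.31 (SE 0.18) and NOCT at -0.21 (SE 0.45). Of 5 glutathione genes, 4 were lower with a median of -0.12 and 0 past it. Both adipocyte markers with a symbol, CIDEC (-0.58, SE 0.60) and GPD1 (-0.09, SE 0.20), had overlapping groups. Both matched GIMAP genes were lower at an unadjusted p under 0.05 against 1.27% of all genes, but they were among the genes the lists were built around. The other lists had 1 to 4 genes with a symbol or none, and of these genes only TGM2 and UGT2B15 were past an unadjusted p of 0.05.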

How the data were processed

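Liver biopsies of steers were sequenced as single-end mRNA libraries. The deposited values were raw read counts per gene that the authors made with STAR on UMD3.1 and Ensembl genes (STAR 2.5.3a in the submitters' processing notes), for 24616 genes and 90 libraries. No 2 libraries had identical counts. Groups came from the labels, which give no sequencing batch. Here counts were kept with filterByExpr, scaled by TMM and tested with edgeR 4.0.16 (quasi-likelihood, robust, Benjamini-Hochberg adjusted p under 0.1) in R 4.3.3, with only the 17 CH libraries on H2 in the model. CPM values are counts scaled to the TMM library size. SE is the log2 fold change divided by the root of F. Exact permutation tests, two-sided, ran over all 24310 splits on log2(CPM + 0.5). The scripts were tested on simulated data. The difference of RFI effects was tested against CH on H1 and HF on H2 as an interaction. Alternatives were DESeq2 1.42.0, limma 3.58.1, other filters and scalings, and libraries left out. Each library held at least 10579800 reads on genes.

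Each steer is 1 animal, so the spread is between animals. Steers in both CH concentrate phases had deviations from their group means that correlated over genes at 0.507 (1100), 0.241 (1320), 0.242 (307) and 0.523 (364), where the pairing comes from the steer number in the titles. Among the 20 CH libraries of H1, the steer's own ranked 1 for steers 1100 and 364 and 2 for steers 1320 and 307. Median correlations with other steers lay between -0.034 and 0.034. The limma block for steer gave a consensus correlation of 0.126.

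Gene symbols came from the study's own gene list, which pairs 328 IDs with a symbol, and 0 Ensembl IDs were in the RefSeq table. The named genes were the 4 the study listed for CH on H2, the 8 with the smallest p in each direction among genes with a symbol, up to 3 per gene list with an unadjusted p under 0.05, up to 6 with groups that do not overlap (there were 0), the 5 closest to each of the 4 by Pearson r, the 5 most abundant (none has a symbol), and genes the study named for CH on other diets. C1R, FBP2 and IFI44 were named after their values were seen. Members, lists and named genes were chosen with earlier results of these data known.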

Additional observations from a re-analysis of the deposited data

Results flagged for a closer look

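In 5 cases 1 library stood apart from the rest of its RFI group by Dixon's criterion, among 20 named genes in both groups. Chance flags about 5% of such groups when values are normally distributed, which CPM values need not be. Most genes named for CH on other diets were not screened, among them TNC, LBP and SERPINA3, each highest in steer 419. HP was 23075 CPM in high RFI steer 419, with the next library at 1214 CPM, and CHI3L2 was 36.7 CPM in the same steer, with the next at 3.91 CPM. TGM2 was 70.6 CPM in low RFI steer 546, with the next at 32.4 CPM. TP53INP1 was 68.7 CPM in low RFI steer 1316, with the next at 37.6 CPM. FCRL1 was 1.40 CPM in high RFI steer 1100, with the next at 0.747 CPM.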

How the results depend on the processing

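The count of 0 genes between low and high RFI became 4 with DESeq2 (515 at an unadjusted p under 0.05), 5 with all 12 groups in 1 model, 3 with the edgeR likelihood ratio test (added after seeing the data) and 2 without the 4 steers with a CH library in another phase, and 0 to 3 when each library was left out. Over those 17 fits the adjusted p of LOC768255 and GIMAP4 ranged from 0.0205 to 0.845 (without steer 493), and it passed only without high RFI steer 1320 (0.0618), 359 (0.0304) or 364 (0.0205), each of which lacks the high level, so that their removal lowers p by construction. The 2 genes called without the 4 steers were also LOC768255 and GIMAP4 (edgeR adjusted p = 0.0217 for each). That fit removed high RFI steers 364 and 1320, which lack the high level, so a smaller p was partly built into it. High RFI steer 1100, which has the high level, was removed as well. In the 12-group model LOC768255 and GIMAP4 did not pass, and ASIP did (adjusted p = 0.00856). The count stayed at 0 with DESeq2 size factors, both other filters, an adjusted p of 0.05, limma-voom and the exact permutation test, without steers 454 and 493 (added after seeing the data), without the steers with changed labels, and with limma-voom and the steer as a replicate block (smallest adjusted p = 0.959). For the exact permutation test the 0 was close to fixed in advance, since 24310 splits cannot pass a gene on its own. For H2 against H1 the count of 0 became 1 (ASIP) with DESeq2, with no filter and in the 12-group model, and for CH against HF 2 with DESeq2, 1 in the 12-group model and 1 without the HF library whose steer number also occurs in CH. The replicate block changed neither (0 for both). HP reversed to 1.35 with DESeq2, 0.97 and 0.95 in the limma-voom models with quality weights and with the block, 0.87 by the mean of log2 CPM and 1.44 without steer 419, the top of a range from -2.69 when each library was left out. Of 548 values of 20 named genes under alternatives, 528 had the same direction and no call, 15 were now called and 5 were reversed. With 9 and 8 steers, small differences and genes near 1 CPM could not be resolved.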
